A study of Caenorhabditis elegans with 2 samples.

Results

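The Hsp70 family genes of Caenorhabditis elegans were described by the peaks near them in chromatin immunoprecipitation of a tagged zinc finger protein. They comprise 8 listed genes of 19973 nuclear protein-coding genes, namely the cytosolic F44E5.4, F44E5.5, hsp-70 and hsp-1, the related hsp-110, the endoplasmic reticulum genes hsp-3 and hsp-4, and the mitochondrial hsp-6. A gene was counted as carrying a summit, the highest point of a peak, when that point lay from 1000 bp upstream to 500 bp downstream of its annotated 5′ end in the WBcel235 assembly. The rule names genes and uses no signal, but the list was chosen with earlier results of these data known.

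Whole worms of strain RW12265 were used, which carry the CRISPR insertion st12265 on chromosome III, placing a TY1::EGFP::3xFLAG tag at Y56A3A.18 (znf-593, a C2H2 zinc finger gene). The animals were young adults aged 63 h, grown from eggs obtained by bleaching and held as starved L1 larvae, and chromatin was sheared by sonication and precipitated with an antibody against GFP before sequencing (ChIP-seq). There were 2 biological replicates of 1 group, so no conditions are compared and the SD given below covers only those replicates. The whole animal mixes all tissues, so a strong signal in few cells and a weak one in many cannot be told apart, the tag is at 1 insertion in 1 strain, and a control experiment named in the labels was not analysed here.

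Hsp70 proteins are chaperones that bind unfolded stretches of other proteins and let them go in a cycle driven by ATP. J-domain proteins stimulate their ATPase, and nucleotide exchange factors, Hsp110 proteins among them, release the ADP. Cells keep some family members at a constant level and induce others after heat through the transcription factor HSF-1, which binds inverted repeats of short GAA units called heat shock elements. The endoplasmic reticulum members, known in mammals as BiP, respond to unfolded proteins in that compartment, and mitochondrial members take part in protein import. Many worm gene models begin at a trans-splice site, so the annotated 5′ end need not be where transcription starts.

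Of the 8 genes, 5 carried a summit of the conservative list, the authors' set of 1687 peaks kept at an irreproducible discovery rate (IDR) of 0.01, a measure of how well a peak keeps its rank between replicates. Among all protein-coding genes 3.89% carried one. The 5 genes were F44E5.4, F44E5.5, hsp-1, hsp-3 and hsp-110, and they rested on 4 peaks, since F44E5.4 and F44E5.5 share theirs. The genes hsp-4, hsp-6 and hsp-70 had no summit of that list in their window. The DNA under the peaks is given first, from the RefSeq WBcel235 genome (ce11 in the authors' files), 5′ to 3′. In every sequence capitals mark matches to GAANNTTC or TTCNNGAA, each a pair of inverted heat shock units, and to AGACGC or its reverse complement GCGTCT. The first 2 motifs are their own reverse complements and overlap where units alternate, so runs in capitals can hold several matches.

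The strongest of the peaks covers chrII:11759361-11759551 (plus strand), between F44E5.4 and F44E5.5, and is shown because the densest heat shock units of the family lie under it.
F44E5.4 and F44E5.5 peak: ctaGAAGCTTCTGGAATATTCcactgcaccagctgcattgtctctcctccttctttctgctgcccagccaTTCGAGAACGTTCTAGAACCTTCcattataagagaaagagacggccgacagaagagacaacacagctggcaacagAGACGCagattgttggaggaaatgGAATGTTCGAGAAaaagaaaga
It holds 9 overlapping pairs, 5 of GAANNTTC and 4 of TTCNNGAA, the nearest centred 20 bp from the summit, and 1 AGACGC centred 39 bp from it.

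The hsp-3 peak is printed only upstream of the annotated start, chrX:6092125-6092347 (minus strand, the direction of the gene), and is shown as a peak without any heat shock pair.
hsp-3 upstream peak: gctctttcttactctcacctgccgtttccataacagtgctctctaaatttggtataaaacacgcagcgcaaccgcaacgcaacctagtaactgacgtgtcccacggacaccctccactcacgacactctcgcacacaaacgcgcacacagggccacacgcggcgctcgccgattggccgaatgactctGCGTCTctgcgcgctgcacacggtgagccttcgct
The capitals mark a GCGTCT centred 42 bp from the summit. The peak also holds 2 matches to CCACG and 1 to TATAAA.

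The peak between hsp-110 and its divergent neighbour rpn-3 covers chrIII:8447019-8447318 (minus strand, the direction of hsp-110).
hsp-110 and rpn-3 peak: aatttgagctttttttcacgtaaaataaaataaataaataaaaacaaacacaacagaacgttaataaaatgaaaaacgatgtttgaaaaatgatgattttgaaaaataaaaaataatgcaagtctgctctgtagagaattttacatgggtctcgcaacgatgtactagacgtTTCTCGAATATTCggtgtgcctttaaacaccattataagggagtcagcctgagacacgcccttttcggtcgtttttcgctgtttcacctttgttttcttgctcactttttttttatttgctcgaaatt
Its 2 pairs, 1 of each form, overlap in 1 run and are centred 27 and 32 bp from the summit. It holds no AGACGC.

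For hsp-1 the deposited lists of both replicates placed the summit at different points, so each is shown with 50 bp to either side, the first in the coding sequence of exon 1 at chrIV:17279027-17279127 and the next upstream at chrIV:17278517-17278617, both on the plus strand.
hsp-1 coding summit: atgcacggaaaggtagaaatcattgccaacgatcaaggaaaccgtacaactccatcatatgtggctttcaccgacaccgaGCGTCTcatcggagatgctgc
hsp-1 upstream summit: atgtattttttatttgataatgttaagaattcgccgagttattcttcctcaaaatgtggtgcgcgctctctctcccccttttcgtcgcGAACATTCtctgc
The coding stretch carries a GCGTCT 32 bp from the summit and no heat shock pair, while the upstream stretch carries 1 pair.

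Of the genes without a peak, hsp-4 is shown over the 200 bp before its start, chrII:7352646-7352845 (minus strand), for comparison with hsp-3, its partner in the endoplasmic reticulum.
hsp-4 upstream: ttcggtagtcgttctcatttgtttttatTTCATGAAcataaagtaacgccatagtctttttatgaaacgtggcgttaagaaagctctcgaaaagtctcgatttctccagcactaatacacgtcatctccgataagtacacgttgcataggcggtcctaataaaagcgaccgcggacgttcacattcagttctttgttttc
It holds 1 heat shock pair, 172 bp before the start, and no AGACGC.

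The signal given below is the authors' strength of enrichment for each peak, on a scale that the labels and files do not state. It was used to set peaks in order within a list. Pooled signal was called on the merged replicates, whereas replicate values come from each replicate's own ranked list, and the former is not an average of the latter. The conservative list had a median pooled signal of 71.9 and a maximum of 396.6. Each replicate's ranked list, with 51496 and 52336 entries, also keeps peaks that did not pass the IDR threshold. In those lists 52.8% of protein-coding genes in replicate 1 and 54.7% in replicate 2 had a summit in the window, and 8 of 8 members had one in each. The replicates' own thresholded lists held 817 and 754 peaks. They held a summit for 4 of the 8 members in replicate 1, where 2.00% of genes had one, and for 5 in replicate 2, where 1.85% did.

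Among the cytosolic genes, the largest signal lay between F44E5.4 and F44E5.5, a divergent pair that encodes inducible Hsp70 proteins. F44E5.4 (WBGene00009691) lies on the minus strand of II at 11757107-11759311 and F44E5.5 (WBGene00009692) on the plus strand at 11759662-11761861, with 350 bp between them. In that intergenic stretch the summit at 11759469 was 158 bp upstream of F44E5.4 and 193 bp upstream of F44E5.5. The signal was 170.4 in replicate 1 and 148.0 in replicate 2 (159.2 ± 15.8, SD, n = 2), with the summits of the replicates 9 bp apart. Both replicates were far above the other members. Ranked by their strongest summit, the pair stood at position 3 of the genes in replicate 1 and at 2 in replicate 2. The pooled signal of 325.6 was the ninth of the conservative list (rank 9 of 1687), and the IDR of 1e-05 was the smallest the list gives.

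Near-identical copies bear on that locus. The annotated F44E5.4 and F44E5.5 genes were 99.2% identical (17 edits), whereas they were 74.97% and 75.05% identical to hsp-70. The intergenic stretch also resembles itself reversed. It was 69.4% identical to its own reverse complement, and the longest run shared with it was 44 bases. Still, 98.1% of the words of 36 bases in the peak and 100% of those of 50 bases occur once in the genome. A single peak between 2 divergent genes cannot be divided between them, and it was counted for both.

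The third inducible cytosolic gene, hsp-70 (WBGene00002026, I 9320325-9322519, minus strand), had no such peak. It lies within the span of uggt-2, which is on the opposite strand. Its strongest summits were 18.3 in replicate 1, 118 bp upstream, and 16.3 in replicate 2, 126 bp upstream (17.3 ± 1.40, SD, n = 2). The replicates placed their summits 8 bp apart, yet both values were the lowest of the 8 genes. They exceeded the values of 54.8% and 59.7% of the genes with a ranked summit, just above the median gene. The pooled summit, 205 bp upstream, had a signal of 32.3 and an IDR of 0.179, well short of the threshold. The 200 bp before the hsp-70 start hold 3 heat shock pairs, the nearest 68 bp from it.

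The constitutive gene hsp-1 (WBGene00002005, IV 17278959-17281330, plus strand) encodes the main cytosolic Hsc70 and differed between lists. Replicate 1 had ranked summits of 26.4 at 154 bp downstream of the start, 22.7 at 522 bp upstream and 2.34 at 313 bp upstream. Replicate 2 had 38.8 at 426 bp upstream, 38.6 at 137 bp downstream and 15.98 at 927 bp upstream. Both replicates thus had a summit in the first coding exon, 17 bp apart, and that is where the conservative list has its peak, with the summit at 17279077. There the replicates gave 26.4 and 38.6 (32.5 ± 8.61, SD, n = 2), and the pooled signal was 57.1, rank 1317 of 1687. It was the member nearest the threshold on the inside, with a −log10 IDR of 2.16. In replicate 1's own list this summit had an IDR of 0.737 and did not pass, while in replicate 2's it had 0.00127. Each of these comes from the list of 1 replicate, so it does not measure agreement between the replicates.

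The other thresholded list of both replicates, with 1826 peaks, instead has the upstream hsp-1 summit at 17278567, with a pooled signal of 64.1. There 4.01% of genes and 5 of the 8 members, the same 5, carried a summit. In the ranked list behind the conservative set this upstream point had an IDR of 0.649. In the other deposited ranked list of both replicates it had 0.00728, and there the coding summit had 0.615. The ranked summits nearest to the upstream point measured 2.34 in replicate 1 and 38.8 in replicate 2. Of the words of 36 bases in the coding peak, 89.1% occur once in the genome, against 100% in the upstream peak. Whether that touches the signal was not tested.

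The gene hsp-110 (WBGene00016250, III 8443910-8446909, minus strand) encodes an Hsp110 protein, a relative of Hsp70 that acts as an exchange factor for it. Its summits measured 51.9 in replicate 1 and 37.7 in replicate 2 (44.8 ± 10.01, SD, n = 2), 1 bp apart. They exceeded the values of 97.9% and 96.5% of the genes with a ranked summit. The pooled summit at 8447169, 260 bp upstream, had a signal of 85.7 and rank 512. It was nearer to rpn-3, a proteasome subunit gene on the plus strand at 8447353-8449346, whose start lay 184 bp away. The noncoding C30C11.14 was nearer still, at 74 bp. The replicate summits lay 218 and 219 bp upstream of hsp-110, 42 and 41 bp from the pooled one. They were slightly nearer to the start of hsp-110 than to that of rpn-3. Counted by the protein-coding start nearest the pooled summit alone, hsp-110 and F44E5.5 lose their call and 3 of the 8 members keep one.

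**Figure D1:**
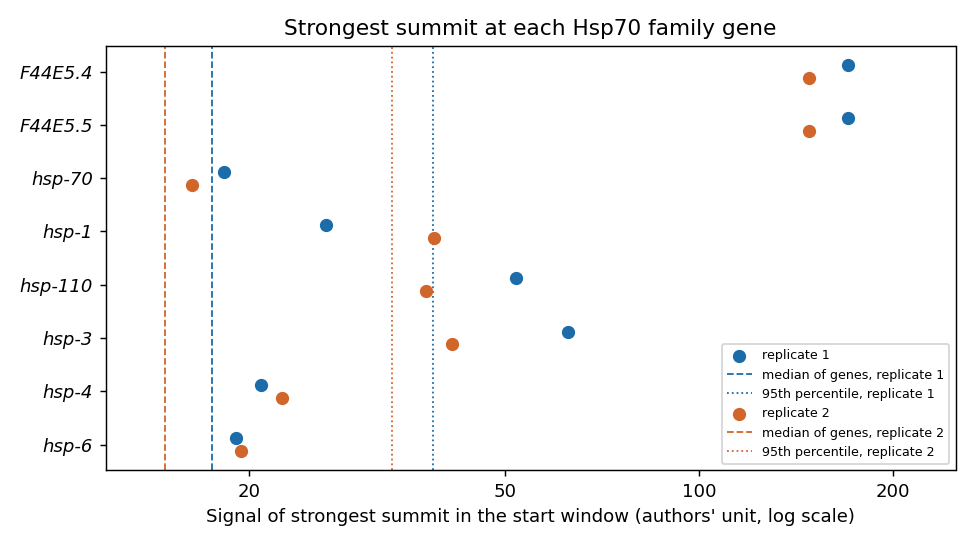
Signal of the strongest summit in the start window of each Hsp70 family gene (horizontal axis, authors' unit, log scale), with 1 point per replicate. Dashed lines are the medians of all genes with a ranked summit (17.6 and 14.8) and dotted lines their 95th percentiles (38.7 and 33.4). The F44E5 genes stand at 148.0 and 170.4. In both replicates hsp-3 and hsp-110 lie beyond the 95th percentile, and hsp-70, hsp-6 and hsp-4 lie below it. For hsp-1 the value is below it in replicate 1 (26.4) and beyond it in replicate 2 (38.8), from summits 580 bp apart.

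In the endoplasmic reticulum, 1 of the BiP genes carried a conservative summit and the other did not. For hsp-3 (WBGene00002007, X 6089028-6092124, minus strand) the replicates gave 62.5 and 41.4 (52.0 ± 14.9, SD, n = 2), 78 and 71 bp upstream of the start. The pooled summit at 6092198, 74 bp upstream, had a signal of 98.0 and rank 357. For hsp-4 (WBGene00002008, II 7350112-7352645, minus strand) the strongest summits were 20.9 and 22.5 (21.7 ± 1.17, SD, n = 2), 647 and 614 bp upstream. The values of the BiP genes did not overlap, with the lower hsp-3 replicate above the higher hsp-4 replicate. The annotated hsp-3 and hsp-4 genes were 58.6% identical over their whole spans, introns included. By the same measure the least alike members, hsp-3 and hsp-110, were 48.7% identical.

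The pooled hsp-4 summit lay 606 bp upstream with a signal of 43.8. In the ranked list behind the conservative set it had a −log10 IDR of 1.22, below the threshold of 2. That was the highest value among the members without a start peak. In the other deposited ranked list of both replicates it had 0.740, and there the hsp-6 summit was higher, at 0.940. The hsp-4 summits nearer the start were weaker, 7.59 at 17 bp upstream in replicate 1 and 20.95 at 184 bp upstream in replicate 2. The nearest conservative summit was 50602 bp from the hsp-4 start.

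The mitochondrial gene hsp-6 (WBGene00002010, V 4824124-4826760, minus strand), which encodes the worm mortalin, was also without a conservative summit at its start. The replicates gave nearly equal values, 19.1 and 19.4 (19.3 ± 0.221, SD, n = 2), but at different places, 445 bp upstream and 239 bp downstream. Replicate 2 had a further summit of 18.7 at 407 bp upstream, 38 bp from that of replicate 1. The pooled summit 407 bp upstream had a signal of 39.7, an IDR of 0.122, and lay over the noncoding genes C37H5.15 and C37H5.16.

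Across the 8 genes, the order of replicate means ran from the F44E5 pair through hsp-3, hsp-110, hsp-1, hsp-4 and hsp-6 to hsp-70. No test of these differences was made with 2 replicates each. The F44E5 values lay clear of all others. The values of hsp-3 and hsp-110 overlapped, as did those of hsp-110 and hsp-1. The lower hsp-1 value was above both hsp-4 values. Those of hsp-4, hsp-6 and hsp-70 did not overlap but together spanned 16.3 to 22.5. The strongest summits of the members had a median of 39.1 in replicate 1 and 38.3 in replicate 2, against 17.6 and 14.8 for all genes with a ranked summit, and 8 of 8 were above that median in each. The 4 conservative peaks had a median pooled signal of 91.9, from 57.1 to 325.6, against 72.0 for the 702 conservative peaks at protein-coding starts. The 4 peaks had a median distance from the start of 138 bp, with 1 distance per peak. For the 702 peaks it was 281 bp over every pairing of peak and gene start, so these values are not counted alike.

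**Figure D2:**
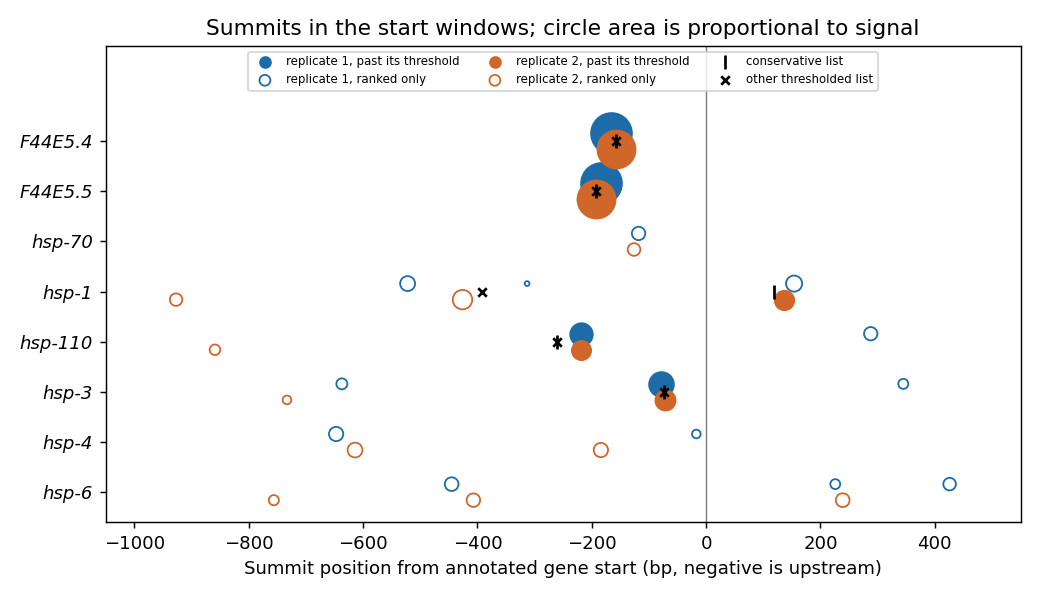
Position of every summit in the start windows (horizontal axis, bp from the annotated start, negative upstream), with circle area proportional to signal and filled circles for peaks past the IDR threshold of their replicate's own list. The F44E5, hsp-3 and hsp-110 summits of the replicates lie 9, 7 and 1 bp apart, hsp-1 has summits on both sides of its start, and those of hsp-70, hsp-4 and hsp-6 are ranked only.

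Sequence motifs divided the 4 start peaks in different ways. In windows of 200 bp about the summit, a heat shock pair was found in 2 of the 4 peaks, those of the F44E5 genes and hsp-110. It was found in 18.5% of the 702 conservative summits at protein-coding starts and in 21.9% of the 200 bp before all protein-coding starts. A run of 3 alternating units was found in the same 2 peaks, in 1.71% of the summit windows and in 1.24% of the upstream windows. The motif AGACGC occurred in 3 of the 4, all but hsp-110, against 15.4% and 5.45%. CCACG, the core of stress elements described in the promoters of mammalian endoplasmic reticulum chaperones, occurred in hsp-1 and hsp-3, against 26.6% and 14.7%. It is also present before hsp-4, which has no peak, 133 bp from the start, much as in hsp-3, where it lies 123 bp from the start. TATAAA occurred in hsp-3 alone, against 14.96% and 30.4%. Both strands were searched for each motif. AGACGC was searched for because it had already stood out at summits of these same data, so its share at summits is not independent.

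Heat shock pairs were also present upstream of members without a peak. Within 500 bp of the start there were 14 in the stretch shared by F44E5.4 and F44E5.5, 4 at hsp-70, 4 at hsp-110, 3 at hsp-1, 2 at hsp-4, 2 at hsp-6 and 0 at hsp-3. At least 1 was found in that stretch for 48.3% of all protein-coding genes. By signal the F44E5 stretch, with 14 pairs, was first, hsp-3, with 0, was second, and hsp-70, with 4, was last. Whether the pairs bear on the signal was not tested. The G and C content of the 200 bp about the summit was 61% for hsp-3, 48% for hsp-1, 47.5% for the F44E5 peak and 37% for hsp-110, against a median of 43% for summits at starts.

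The 3′ ends of the genes were also examined, in a comparison chosen after the values were seen. A conservative summit lay within 500 bp of the annotated 3′ end in 6 of the 8 members, against 4.02% of all protein-coding genes. The members were F44E5.4, hsp-1, hsp-3, hsp-6, hsp-70 and hsp-110, and none lay there at F44E5.5 or hsp-4. In the replicates' own thresholded lists such a summit was found for 4 members in replicate 1, against 1.92% of genes, and for 3 in replicate 2, against 1.91%, with hsp-1 and hsp-110 in both.

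The strongest 3′ signal was that of hsp-1, and the part of the peak past the end of the gene, chrIV:17281331-17281496 (plus strand), is shown because the peak has no annotated start of another gene in range.
hsp-1 past the 3′ end: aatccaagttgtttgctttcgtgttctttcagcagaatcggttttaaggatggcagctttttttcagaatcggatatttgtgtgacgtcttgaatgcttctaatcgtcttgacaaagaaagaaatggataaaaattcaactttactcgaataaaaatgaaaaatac
It holds none of the motifs in capitals. The summit at 17281375, 45 bp past the end, had a signal of 94.7 in replicate 1 and 81.8 in replicate 2 (88.2 ± 9.12, SD, n = 2). Its pooled signal of 184.0 was rank 57 of 1687, higher than that of the hsp-1 start peak in both replicates and in the pool.

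At hsp-110 the 3′ summit lay 108 bp past the end, with 46.7 and 63.0 (54.9 ± 11.5, SD, n = 2) and a pooled signal of 124.6, rank 154. It was also 195 bp upstream of ufbp-1, so the gene it belongs to cannot be told apart. The summit 132 bp past the end of hsp-3 had 42.96 and 22.99, with a pooled signal of 53.7 and no other start in range. F44E5.4 had one 132 bp past its end, with 26.1 and 46.1 and a pooled signal of 61.8, which also lay in the window of the noncoding F44E5.16. These were weaker than the start peaks of the same genes, except at hsp-110, where the pooled signal was higher at the 3′ end and the replicates disagreed on the order.

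The members without a start peak differed here. hsp-6 had a summit 173 bp before its 3′ end, in the 3′ UTR, with 30.1 and 39.1 and a pooled signal of 52.2, which was also 874 bp upstream of adss-1. It had a further one 250 bp past the end, with 40.4 and 22.8 and a pooled signal of 50.9, 451 bp upstream of adss-1. hsp-70 had one 197 bp past its end with 30.8 and 27.9 and a pooled signal of 58.2. That summit lay between the tRNA genes WBGene00012377 and WBGene00013918, 50 and 92 bp from their starts, and 68.3% of the peak's words of 36 bases occur once in the genome. Whether the tRNA genes or the repeated words account for the hsp-70 signal was not tested. For hsp-4 no conservative summit lay in either window.

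Start and 3′ end were occupied together in 4 of the 8 members, namely F44E5.4, hsp-1, hsp-3 and hsp-110, against 0.676% of all protein-coding genes. Among genes with a start summit 17.4% also had a 3′ summit, and among genes without one 3.47% did. At least 1 of these summits was present in 7 of the 8 members and in 7.23% of genes.

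Inside the genes, more than 500 bp from both ends, 2 of the 8 members carried conservative summits, against 1.70% of protein-coding genes. For hsp-1 they lay in coding sequence 585 and 1329 bp downstream of the start, with pooled signals of 42.4 and 37.7. The further of these was 119 bp from the snoRNA gene F26D10.24. For hsp-3 they lay in coding sequence at 879 bp (25.1) and in an intron at 1085 bp (47.5). The nearest ranked summits of the replicates measured 35.8 and 28.4 at the first hsp-1 point. For the second they measured 31.5 and 27.8, at 31 and 197 bp from it. The internal hsp-3 peaks overlap, and the same summit of each replicate, 31.6 and 28.7, was nearest to both points. It lay 62 and 67 bp from the intron point and 144 and 139 bp from the coding point. None of these internal peaks overlapped a peak of a replicate's own thresholded list or of the other thresholded list.

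From 1000 bp upstream to 500 bp past the 3′ end, hsp-1 and hsp-3 therefore had 4 conservative summits each. Only 20 protein-coding genes had 4 or more, which is 0.100%, and 7 of these were no longer than hsp-3 (3097 bp). In the other thresholded list and in each replicate's own list, 0 of the 8 members had as many, with 17, 6 and 5 genes reaching 4. The count for hsp-1 and hsp-3 therefore rests on the conservative list. For hsp-3 it includes the overlapping internal peaks, which share their nearest summit in each replicate.

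**Figure D3:**
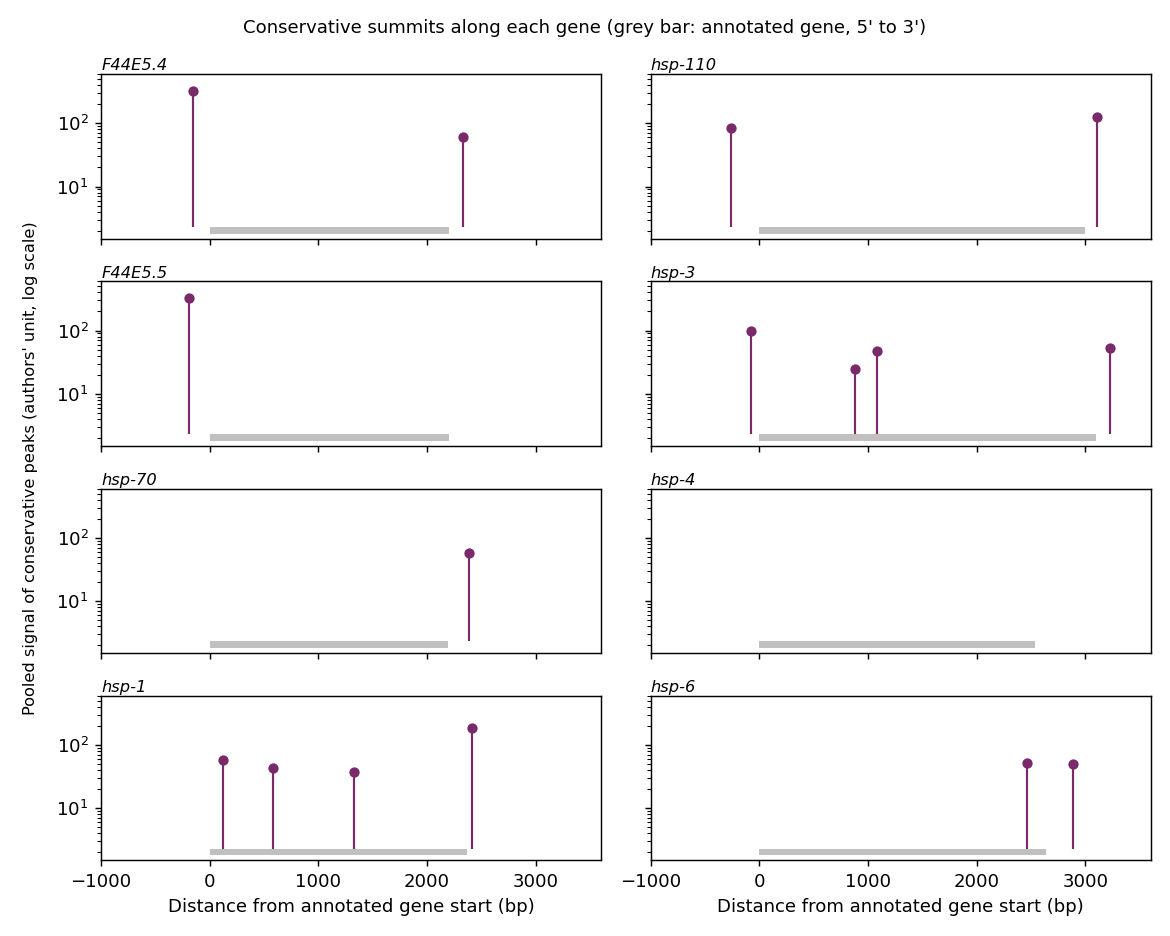
Pooled signal of conservative summits (vertical axis, authors' unit, log scale) by distance from the annotated start (horizontal axis, bp) for each Hsp70 family gene, with the annotated gene as a grey bar. The hsp-1 and hsp-3 panels hold 4 summits each, the highest hsp-1 point (184.0) lies just past the 3′ end, hsp-6 and hsp-70 have summits at the 3′ end alone, and hsp-4 has none.

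Cochaperone genes, other chaperone genes and stress regulators were described from lists made by role. Of 80 such genes other than the members, 12 (15%) carried a conservative summit at their start, against 3.89% of all protein-coding genes. In the other thresholded list 10 did, against 4.01%, and the genes lost there were dnj-28 and hsp-17. J-domain genes accounted for 6 of 29. The strongest was dnj-19, with 76.7 and 84.1 and a pooled signal of 172.8 in a peak shared with nhr-47. It was followed by dnj-9, with 77.1 and 69.5 and a pooled 150.01, dnj-13, with 58.7 and 46.8 and a pooled 101.4, and dnj-28, with 50.6 and 35.5 and a pooled 86.8. The peaks of dnj-13 and dnj-28 were shared with F54D5.9 and supr-1. Every replicate value of these 4 genes was below that of the F44E5 peak.

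Among exchange factors and adaptors, 2 of 7 carried a summit. They were bag-1, which encodes a BAG-domain cochaperone, with 61.0 and 68.1 and a pooled 141.6, and C34C12.8, which encodes a GrpE-type exchange factor of mitochondria, with 60.8 and 80.7 and a pooled 132.8. The mitochondrial chaperonin genes hsp-60 and Y22D7AL.10 shared 1 peak, with 85.7 and 102.7 and a pooled 189.7. Of the small heat shock genes, 1 of 14 carried a summit, hsp-17, with 31.3 and 25.3 and a pooled 46.7. Of the mitochondrial stress genes, 1 of 5 did, ubl-5, with a pooled 20.1. The strongest summits in its window were 29.9 and 26.3 in the replicates and need not belong to the same peak.

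No conservative start summit was found for 4 other Hsp70-type genes, 8 Hsp90 and cochaperone genes, 4 heat shock regulators and 7 endoplasmic reticulum stress regulators. The small lists allow no statement on how these groups differ, and no test was made between them.

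**Figure D4:**
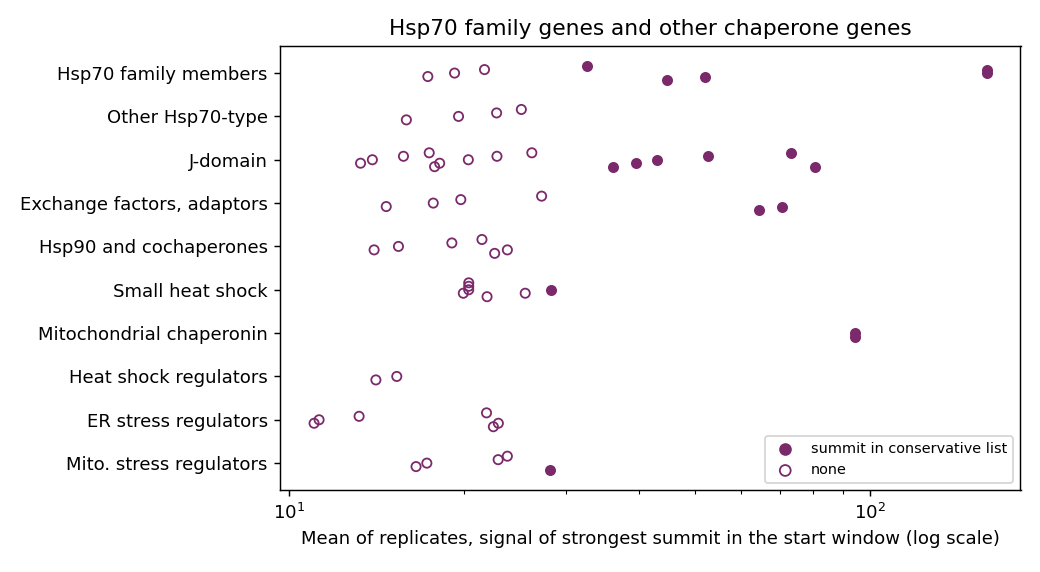
Mean over the 2 replicates of the strongest start summit (horizontal axis, authors' unit, log scale) for each Hsp70 family gene. Genes of the lists of cochaperones, other chaperones and stress regulators are shown where both replicates have a ranked summit. Filled points are genes that carry a conservative start summit. The F44E5 genes (159.2) stand above all points of the other lists, of which the chaperonin genes (94.2) are next.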

How the data were processed

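Peak lists from ChIP-seq of 2 biological replicates were used as deposited by the authors. The names of the lists of both replicates give the assembly as ce11. Which aligner and peak caller were used is not given in the sources used. The deposited signal of a peak is the authors' enrichment strength, and the −log10 values are the authors' IDR. No read counts were used, so the depth and the precision it gives are unknown. Summits were assigned to Ensembl release 115 gene models of WBcel235 with python 3.11.15, numpy 2.4.6 and pandas 2.3.3, and the assignment was tested on simulated positions. Replicate values are the strongest ranked summit in the window or, at a named peak, the ranked summit nearest to it. Identity is 100% less the edits per base of the longer gene. All 8 members are named, and of each list made by role every gene with a summit up to the 4 of highest pooled signal. The members and lists were chosen with earlier results of these data known, and the counts at 3′ ends and along the genes were added after values were seen. Of the names in the lists made by role, 6 matched no gene name and were not used. No test was made over the members, so only shares of all genes stand beside their counts. Alternatives were the other lists, windows, assignment to the nearest start, a signal minimum and each replicate alone.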

Additional observations from a re-analysis of the deposited data

How the results depend on the processing

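Of the 8 members, 5 carried a start summit under 6 of the 9 alternatives. With peaks at or above the median signal and without replicate 2 there were 4, each time without hsp-1, and with the nearest protein-coding start only there were 3. The share of all genes was 2.67% with 500 bp upstream to 200 bp downstream, 5.41% with 2000 bp upstream, 4.28% with the 5′ end of any transcript and also with any base of the peak, 3.22% with the nearest start, 2.20% with peaks at or above the median signal, and 1.85 to 2.00% without 1 replicate. Genes of the lists made by role with a summit numbered 7 to 8 without 1 replicate, against 12. In 100 bp windows the shares of start summits were 8.40% for heat shock pairs, 17.2% for CCACG, 6.13% for TATAAA and 11.3% for AGACGC, and of the 4 member peaks 2, 1, 0 and 3 held them, so the CCACG of hsp-1 and the TATAAA of hsp-3 fall outside. Among choices made after seeing the data, members with a 3′ summit numbered 3 to 4 without 1 replicate (1.91 to 1.92% of genes), against 6 (4.02%), and members with 4 or more summits along the gene 0 in the other thresholded list and 0 to 0 without 1 replicate. The replicate signals of the members moved by less than their SD in 29 cases, and in 3 by more, all with the narrow window, for hsp-4 (7.59 and 20.95) and hsp-6 (18.7 in replicate 2). With 2 replicates and no read counts, small differences in signal cannot be resolved, and no background from untagged worms stands beside the values. No paired analysis was possible because there is 1 group.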
